A study of Macaca mulatta with 5 samples.

Results

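Cadherins, protocadherins, claudins, catenins, desmosomal cadherins and connexins were followed through a 5-stage culture of rhesus macaque embryonic stem cells directed towards serotonin neurons. The members were all genes whose symbol in the array's annotation carries the family prefix of these groups (CDH, PCDH, CLDN, CTNN, DSG, DSC and the GJA to GJD connexins), apart from the endothelial cadherin CDH5 and the claudin CLDN6. The rule itself uses symbols and no measured value. This gave 79 genes of 14132 named genes, measured by 129 probe sets. They comprised 4 type I classical cadherins, 10 type II cadherins, 5 other cadherins, 6 desmosomal cadherins, 12 clustered protocadherins and 8 other protocadherins. The rest were 16 claudins, 13 connexins and 5 genes with a CTNN symbol, grouped as catenins although CTNNBIP1 is a catenin inhibitor. CDH2, CDH6, CTNNB1 and GJA1 were not analysed here.

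The cultures came from 1 cell line, 366.4, and each stage was represented by 1 array. ESC were undifferentiated cells of passage 13 kept on mouse embryonic fibroblasts, and EB were embryoid bodies taken after 6 to 8 days. N1 were spheres selected for 7 to 9 days in DMEM/F12 with N2 supplement, N2 were grown for 7 to 9 days more with added FGF4, and N3 were matured without FGF4 in what the labels call GFR reduced wells, for a time the labels do not give. No stage had a replicate, so no difference below has a test, an error or a replicate check. Signals are array intensities scaled to a common trimmed mean of 500. Where 5 values are listed they run through ESC, EB, N1, N2 and N3 in that order. Values under a floor of 100 were treated as not measurable, and a ratio with 1 side under the floor is written as "at least".

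Cadherins are transmembrane proteins that bind like cadherins on the neighbouring cell and, through catenins, hold the actin cytoskeleton at adherens junctions. Desmosomal cadherins do the same for intermediate filaments, claudins seal the tight junctions of epithelia, and connexins form the channels of gap junctions. When the neural plate forms, epithelial cadherin gives way to neural cadherin, and developing neurons then use type II cadherins and protocadherins to sort and to recognise each other. The clustered protocadherins are encoded in neighbouring alpha, beta and gamma arrays, and single neurons express different combinations of them.

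The arrays differed in quality. The signal of the 3' actin control divided by that of the 5' control was 1.73, 15.2, 5.43, 25.2 and 8.63 from ESC to N3. For GAPDH the same ratio was 1.94, 2.78, 1.69, 7.1 and 2.1, highest in N2, with the other arrays closer together. In ESC, 4 of 59 reporter controls, which have no target in these cells, reached 100, against 0 or 1 on the other arrays. Of 5 markers of undifferentiated cells, 3 (POU5F1, DPPA4 and DNMT3B) were at least 2-fold lower in N3 than in ESC, SOX2, which neural progenitors share, was 19736 in ESC and 14978 in N3, and NANOG was 1047 in ESC and 2155 in N3. Of 7 serotonin neuron markers, the defining enzymes TPH2 and TPH1 and the factor LMX1B stayed under 100 on every array, and FEV was under 100 in N2 and N3. The others, which other cells also make, were measurable in N3, with GATA2 at 107, SLC18A2 at 150 and GATA3 at 895, the last 2.58-fold higher than in ESC but highest in EB, at 3912. The summed signal of 5 endoderm markers was 2084, 54274, 38479, 11991 and 2273 from ESC to N3. The EB sum rests mainly on APOA1 (20596) and FGB (26301), whereas AFP was 991 in ESC and 601 in EB. Of 4 endoderm markers measured in N3 against ESC, 2 were at least 2-fold higher (FOXA2 and GATA6) and 1 lower (AFP). These are mixed cultures, in which fewer cells of a type and less RNA per cell cannot be told apart.

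Of the 79 members, 60 (75.9%) reached 100 on at least 1 array, compared with 82.4% of all genes, and 42 (53.2%) reached 200, compared with 69.1%. A further 18 lay between 100 and 200 at their highest, and 19 were under 100 on all 5 arrays. Of the 42 members at 200 or more, 32 differed at least 2-fold between their highest and lowest stage. The highest stage of these 32 was ESC for 8 (37.7% of all genes that met the same limits), EB for 5 (16.1% of all genes), N1 for 3 (9.44%), N2 for 4 (13%) and N3 for 12 (23.7%). As shares of the 32 members these were 25%, 15.6%, 9.38%, 12.5% and 37.5%. Membership in the 32 depends on the values themselves, so these shares describe the arrays only.

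**Figure D1:**
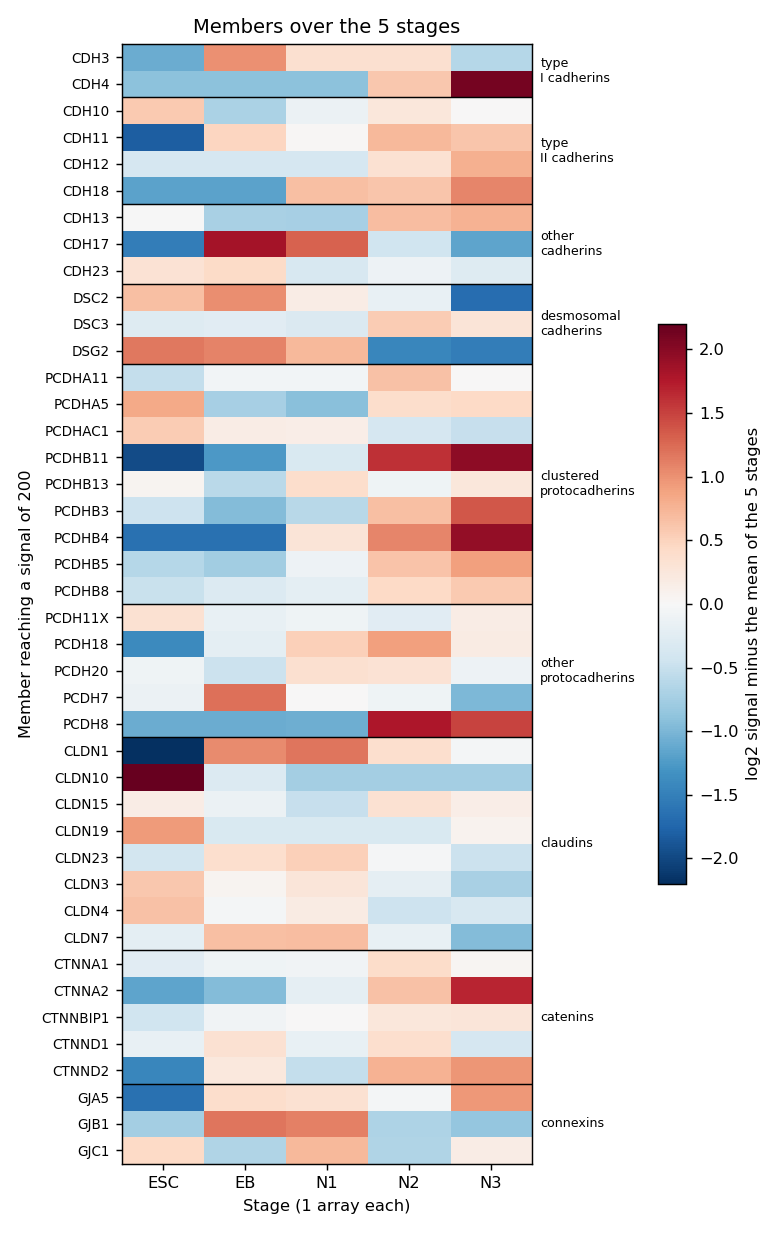
Each row is 1 of the 42 members that reached a signal of 200 and each column is a stage (1 array each). Colour gives the log2 signal, with values under 100 set to 100, minus that member's mean over the 5 stages. The beta protocadherins PCDHB3, PCDHB4, PCDHB5, PCDHB8 and PCDHB11 are reddest in N3, whereas DSG2 and DSC2 are bluest there.

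Classical cadherins of type I were represented by CDH1, CDH3, CDH4 and CDH15. CDH1, the epithelial cadherin that holds embryonic stem cells together, read 69.6, 48.9, 4.6, 17.4 and 2 from ESC to N3 on its single probe set. It was therefore not measurable at any stage, including the stage of undifferentiated cells, and whether this probe set works cannot be told from these data. The epithelial marker EPCAM, a membrane adhesion protein, was 3036 in ESC on the same array. CDH3, the placental cadherin of epithelia and trophoblast, was 1467, 6291, 3983, 3999 and 2010 from ESC to N3. It was 4.29-fold higher in EB than in ESC and 1.99-fold lower in N3 than in N2, and its second probe set was highest in EB as well, at 2316, but lower in N3 (801) than in ESC (1282). CDH4, the retinal cadherin of developing brain and muscle, was 90.6, 55.4, 83.1, 282 and 798 from ESC to N3. It crossed the floor in N2, was 2.83-fold higher again in N3, and lay at least 7.98-fold higher in N3 than in ESC. CDH15, the muscle cadherin, was above 100 only in ESC (166) and N3 (173). Its ESC signal lay under the brightest reporter control on that array, 190. The skeletal muscle genes MYH3 and MYL1 summed to 83.3, 160, 290, 5880 and 26104 from ESC to N3, and their part in the levels of CDH4 and CDH15 was not tested.

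Of 7 type II cadherins measured in N3 against ESC, 3 were at least 2-fold higher and 0 lower, with a median log2 ratio of 0.72, where 17.2% of all measured genes were higher and 16.4% lower. CDH11, a cadherin of mesenchyme that is also made by neurons, was 1647, 8036, 5878, 9488 and 8808 from ESC to N3. On this brightest probe set the step lay between ESC and EB (4.88-fold higher). The dimmest CDH11 probe set, 151 in ESC and 1399 in EB, had its step there as well. The second, 749, 3195, 6226.5, 4442 and 8814 from ESC to N3, was higher again in N1 than in EB and in N3 than in N2. All 3 probe sets were higher in N3 than in ESC, by 2.42, 3.56 and 3.63 on the log2 scale. The summed signal of 6 fibroblast markers went from 13982 in ESC to 29997 in EB and 49752 in N3. In EB against ESC, DCN and LUM were higher (under 100 in ESC, 7189 and 17532 in EB), whereas COL1A2, COL3A1 and THY1 were at least 2-fold lower, with a median log2 ratio of -1.09 over the 6, so the EB sum rests mainly on DCN and LUM. In N3 against ESC, 3 of the 6 were higher and 2 lower, and their part in the CDH11 difference was not tested.

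CDH18 and CDH12, type II cadherins of the central nervous system, passed the floor later in the culture than CDH11, which was above it in ESC. CDH18 was 58.7, 63.4, 358, 343 and 478 from ESC to N3, so it first passed the floor in the selected spheres and was at least 3.58-fold higher there than in EB. CDH12 was 23.5, 18.3, 28.1, 162 and 222 from ESC to N3, which is at least 2.22-fold higher in N3 than in ESC, a log2 ratio of 1.15 that was 0.99 with quantile normalisation and 0.15 with a floor of 200. CDH10, another brain cadherin, ran differently, with 2213, 920, 1365, 1772 and 1509 from ESC to N3. It was lowest in EB, where its log2 ratio to ESC was -1.27, or -0.78 with equal medians. CDH7, CDH8 and CDH9 stayed under 200 and were each above 100 in N3, at 130, 164 and 119, and under 100 in ESC and EB. CDH19, CDH20 and CDH22 were under 100 throughout. The summed signal of 5 neuronal markers (TUBB3, DCX, STMN2, ELAVL3 and ELAVL4) was 4909, 3434, 19015, 26104 and 47624 from ESC to N3. From N1 on it rests mainly on STMN2, at 12594, 13995 and 24814. In ESC it rests mainly on TUBB3, which was 3684, 663, 2852, 1819 and 7590 from ESC to N3. In N3 against ESC, 4 of the 5 were at least 2-fold higher and 0 lower. The skeletal muscle and fibroblast marker sums given above were highest in N3 too. The part of these 3 sums in the cadherin differences was not tested.

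Among the other cadherins, CDH17, the intestinal and liver cadherin that lacks a catenin-binding tail, was 48.3, 1021, 710, 212 and 130 from ESC to N3. It was at least 10.2-fold higher in EB than in ESC and 3.35-fold lower in N2 than in N1, with N3 close to the floor. The endoderm marker sums given above, which in EB rest mainly on APOA1 and FGB, had their highest value in EB too. Their part was not tested. CDH13, a cadherin anchored to the membrane by a lipid and present on neurons and vessels, was 465, 286, 283, 747 and 796 from ESC to N3. It was 2.64-fold higher in N2 than in N1 (a log2 ratio of 0.82 with hybridisation controls), and its second probe set had a log2 ratio of 1.06 in the same direction. CDH23, a cadherin of the hair cell tip link, differed by 1.71-fold at most between stages.

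Of 3 desmosomal cadherins measured in N3 against ESC, 2 were at least 2-fold lower and 0 higher, with a median log2 ratio of -2.32, where 16.4% of all genes were lower. DSG2, the desmoglein of simple epithelia, was 1616, 1549, 1186, 267 and 253 from ESC to N3. The first 3 stages lay close together and the last 2 far below them, with N2 4.45-fold lower than N1 and N3 6.38-fold lower than ESC. Of its dimmer probe sets, 2 had log2 ratios of -0.91 and -0.84 in N3 against ESC, under the 2-fold limit, with N3 below the floor on both, and the remaining one was under 100 throughout. DSC2, its partner desmocollin, was 2785, 3588, 1973, 1577 and 557 from ESC to N3. On this probe set DSC2 was 1.82-fold lower in N1 than in EB and 2.83-fold lower in N3 than in N2. It lay 5.01-fold lower in N3 than in ESC. Its second probe set, 111 in ESC and 203 in EB, was under 100 in N1, N2 and N3. DSC3 was between 133 and 244 with its highest value in N2, and DSC1, DSG1 and DSG3, the forms of stratified epithelium, were under 100 throughout.

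The desmosome plaque gene DSP, which links these cadherins to keratin filaments, was 4628, 9559, 7674, 4913 and 1792 from ESC to N3. Of the 5 plaque genes measured in N3 against ESC, 3 were at least 2-fold lower (DSP, PKP4 and PERP) and 0 were higher. Their median log2 ratio was -1.37. Over all measured genes 16.4% were lower and 17.2% higher in that comparison. JUP, the plaque catenin also called plakoglobin, was 1524 in ESC and 774 in N3, a 1.97-fold difference. The summed signal of 8 epithelial markers was 11454, 28148, 15860, 6719 and 3752 from ESC to N3. CDH1 was the 1 marker of these under 100 on every array. The EB sum rests mainly on KRT19, at 1954 in ESC and 17852 in EB. Of 7 epithelial markers measured in EB against ESC, 2 were at least 2-fold higher and 2 lower, with a median log2 ratio of -0.49. In N3 against ESC, 1 of 7 was higher (KRT18) and 4 were lower, with a median of -1.82. The part of these markers in the desmosomal differences was not tested.

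**Figure D2:**
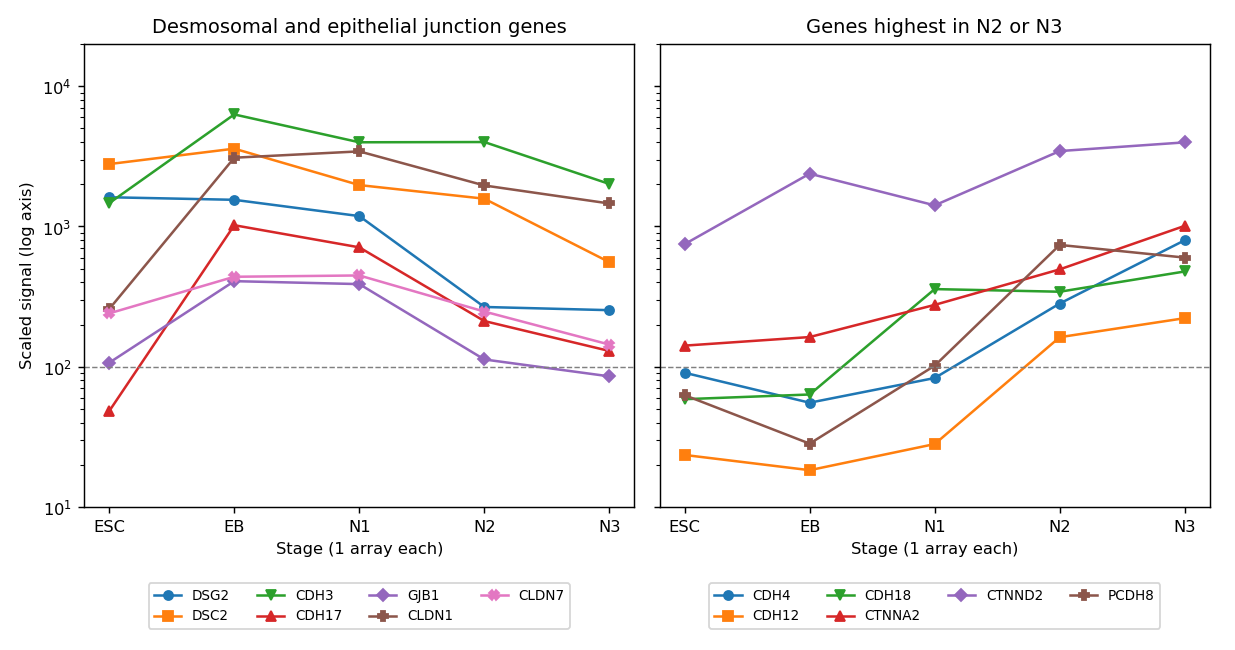
Scaled signal on a log axis by stage (1 array each). The dashed line is the floor of 100. The left panel holds desmosomal cadherins and epithelial junction genes, of which DSG2 and DSC2 are at 253 and 557 in N3 against 1616 and 2785 in ESC, and CDH17 and GJB1 have their highest value in EB. The right panel holds genes that are highest in N2 or N3, with CTNNA2 higher at each successive stage from 141 to 1010.

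Claudins had their highest signal in different stages. CLDN1, a sealing claudin of many epithelia, was 258, 3092, 3431, 1960 and 1458 from ESC to N3, and so was 12-fold higher in EB than in ESC and remained 5.65-fold higher in N3. The second CLDN1 probe set was 166, 333, 352, 161 and 106 from ESC to N3, which repeats the peak in EB and N1 but leaves N3 below ESC. CLDN7, an epithelial claudin, had a peak in the same stages, with 240, 438, 447, 247 and 144 from ESC to N3. CLDN23 was 140, 237, 265, 181 and 133 from ESC to N3, again highest in EB and N1.

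Another 4 claudins were highest in ESC. CLDN10, an ion-selective claudin, was 961, 135, 56.6, 67 and 66.2 from ESC to N3, which made it 7.1-fold lower in EB and at least 9.61-fold lower in N3. CLDN19 was 241, 59.9, 86.7, 86.8 and 132 from ESC to N3, and its second probe set was likewise 218 in ESC, under 100 in EB, N1 and N2 and 115 in N3. CLDN3 was 314, 216, 249, 181 and 127 from ESC to N3, and CLDN4 was 616, 382, 447, 288 and 308 in the same order. Both are epithelial claudins, and N3 was 2.47-fold below ESC for CLDN3 and 1.998-fold below for CLDN4. CLDN15, an intestinal pore-forming claudin, kept within 711 and 1278 with no direction. CLDN5, the claudin of blood vessels, CLDN8, CLDN16 and CLDN20 were under 100 throughout, and CLDN2, CLDN9, CLDN14 and CLDN18 stayed under 200.

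Of 9 measured genes that work with claudins at tight junctions, 6 were at least 2-fold lower in N3 than in ESC and 0 higher, with a median log2 ratio of -1.24. F11R, a junctional adhesion molecule, was 13176, 9486, 6208, 4023 and 1830 from ESC to N3, so it was lower at every step and 7.2-fold lower over the whole course. OCLN, which encodes occludin, was 344 in ESC and under 100 in all later stages. The 11 claudins measured in the same comparison counted 1 higher (CLDN1) and 2 lower (CLDN3 and CLDN10), with a median of -0.46, a share of 18.2% lower that is close to the 16.4% of all genes.

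Clustered protocadherins were the family with the most members at least 2-fold higher in N3 than in ESC. Of 9 measured in N3 against ESC, 5 were at least 2-fold higher and 1 lower, with a median log2 ratio of 1.07, beside -0.13 over all measured genes, of which 17.2% were higher and 16.4% lower. All 5 were beta protocadherins. PCDHB11 was 76.5, 162, 310, 1199 and 1538 from ESC to N3. PCDHB4 was 63.5, 81.1, 379, 660 and 1190 from ESC to N3. PCDHB4 was under the floor in both ESC and EB, and from EB on each stage was higher than the one before for both genes. N3 lay at least 15.4-fold above ESC for PCDHB11 and at least 11.9-fold for PCDHB4. The second probe set of PCDHB4 was 103, 85.2, 183, 310 and 552 from ESC to N3. The neuronal, skeletal muscle and fibroblast marker sums given above were all highest in N3 as well, and their part in the beta protocadherin differences was not tested.

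The other 3 followed at lower signals. PCDHB3 was 142, 93.5, 127, 306 and 498 from ESC to N3, a 3.5-fold difference between N3 and ESC. PCDHB5 was 110, 57.6, 157, 263 and 316 from ESC to N3 (2.89-fold). The ESC signals of PCDHB3 and PCDHB5 lay under the brightest reporter control on that array, 190, so these folds hold against the floor of 100 only. PCDHB8 was 57.5, 114, 121, 191 and 211 from ESC to N3 (at least 2.11-fold), and its log2 ratio of 1.07 was 0.92 with quantile normalisation, 1.00 with equal medians and 0.07 with a floor of 200. All 5 were higher in N2 than in N1 and higher in N3 than in N2, except that the PCDHB8 log2 ratio, N3 against N2, of 0.14 was -0.022 with quantile normalisation. PCDHB13, in contrast, was 298, 190, 377, 268 and 342 from ESC to N3 with no direction, and PCDHB1 and PCDHB16 were under 100 on all arrays. In the RefSeq gene table PCDHB3, PCDHB4 and PCDHB5 are consecutive genes. Beta protocadherins are near copies of one another, the PCDHB8 probe set is of a type that can bind related transcripts, and how far 1 transcript lit several of these probe sets was not tested.

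None of the 3 alpha protocadherins that reached 200 was 2-fold higher in N3 than in ESC. PCDHA5 was 6775, 2275, 1992, 4927 and 5148 from ESC to N3, so it was 2.98-fold lower in EB than in ESC and 2.47-fold higher in N2 than in N1. Of its 5 other probe sets, 2 were under 100 throughout and 1 was opposite in both steps (226 in EB and 264 in N1 against 56.6 in ESC and 82.1 in N2), while a further one (161, 35.9, 25.1, 111 and 121 from ESC to N3) went the same way as the brightest in both steps at a lower signal. The remaining probe set was lower in EB than in ESC, as the brightest was, but lower in N2 than in N1. PCDHAC1 was 4546, 3451, 3379, 2380 and 2159 from ESC to N3, 2.11-fold lower at the end. Its log2 ratio of -1.07 in N3 against ESC was -0.87 with hybridisation controls, -0.97 with equal medians and -0.98 after quantile normalisation, all under 2-fold, and the direction of its smaller steps turned with the scaling. PCDHA11 was 538, 740, 736, 1200 and 775 from ESC to N3. Both other probe sets of PCDHAC1 and both of PCDHA11 were under 100 throughout. PCDHAC2 stayed under 200.

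**Figure D3:**
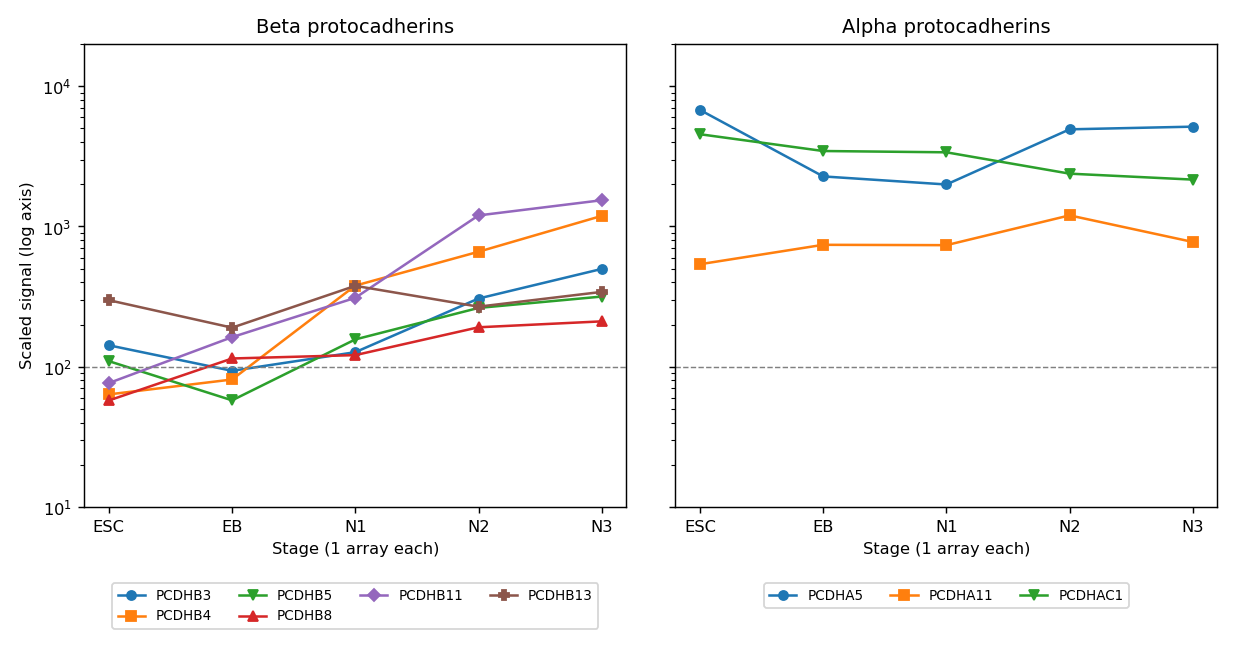
Scaled signal on a log axis by stage (1 array each), with the floor of 100 as a dashed line, for beta (left) and alpha (right) protocadherins that reached 200. PCDHB3, PCDHB4, PCDHB5 and PCDHB11 are higher in N2 than in N1 and higher again in N3, as is PCDHB8 except in N3 against N2 with quantile normalisation, whereas PCDHAC1 is lower in N3 than in ESC and PCDHA5 is lowest in EB and N1.

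Protocadherins outside the clusters had separate courses. PCDH8, a protocadherin of early mesoderm and of neurons, was 62.7, 28.3, 102, 739 and 600 from ESC to N3. Its step lay between N1 and N2, where it was 7.26-fold higher, and N3 stayed at least 6-fold above ESC. The N1 signal of PCDH8 lay under the brightest reporter control on that array, 105, so the 7.26-fold difference holds against the floor of 100 only. PCDH18 was 1392, 3178, 5319, 6903 and 4162 from ESC to N3, with its highest value in N2, although its log2 ratio of 0.38 in N2 against N1 was -0.20 with hybridisation controls. The second probe set of PCDH18 placed its step between EB and N1 instead (537 and 1884). PCDH7, a protocadherin of brain and heart, was 777, 1951, 849, 794 and 427 from ESC to N3, with a single peak in EB. The other PCDH7 probe set was under 100 throughout. The heart markers MYH6, MYL7 and TNNT2 summed to 476 in ESC, 15955 in EB and 10000.2 in N1, and their part in the PCDH7 peak was not tested.

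PCDH11X, a protocadherin of the brain, was 844 in ESC and between 563 and 752 later on its brightest probe set. Another PCDH11X probe set was 101, 877, 793, 578 and 452 from ESC to N3, so the probe sets disagreed on the ESC level. PCDH20 was between 132 and 234. PCDH10 stayed under 200, at 9 in ESC and between 113 and 168 in the later stages, and PCDH12 and PCDH15 stayed under the floor.

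All 5 genes with a CTNN symbol, which are catenins apart from the inhibitor CTNNBIP1, were measurable at every stage. CTNNA1, the general alpha-catenin that ties cadherins to actin, was 7347, 8160, 8277, 11506 and 8971 from ESC to N3, a spread of 1.57-fold. CTNNA2, its neuronal counterpart, was 141, 163, 276, 494 and 1010.2 from ESC to N3. CTNNA2 was higher at every step and 7.14-fold higher in N3 than in ESC on its single probe set, from an ESC signal under the brightest reporter control on that array. CTNND1, the delta-catenin p120 that keeps cadherins at the membrane, was 1950, 2760, 1971, 2847 and 1692 from ESC to N3. CTNND2, the neural delta-catenin of dendrites and synapses, was 748, 2379, 1414, 3449 and 3977 from ESC to N3. CTNND2 was 5.32-fold higher in N3 than in ESC, and its second probe set was higher by 2.86 on the log2 scale. On their brightest probe sets the general forms CTNNA1 and CTNND1 differed by 1.57-fold and 1.68-fold between stages and the neural forms by 7.14-fold and 5.32-fold, but other probe sets reached 1.81-fold for CTNNA1 and 4.25-fold for CTNND1. The part of the neuronal, skeletal muscle and fibroblast marker sums, all highest in N3, in these differences was not tested. CTNNBIP1, an inhibitor of beta-catenin signalling, went from 464 in ESC to 754 in N3, 1.62-fold in all, with steps small enough for their direction to turn with the scaling.

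Of 13 connexins, 3 reached 200. GJA5, a connexin of atrial muscle and arteries, was 79.8, 407, 390, 302 and 599 from ESC to N3, at least 5.99-fold higher in N3 than in ESC. The other GJA5 probe set was under 100 throughout. The heart marker sum was 476 in ESC, 15955 in EB and 5552 in N3. The sum of 4 endothelial markers was 3336 in ESC, 10954 in EB and 1631 in N3. In N3 that sum rests on TEK (1499), with PECAM1, CDH5 and KDR under 100. The part of these markers in the GJA5 level was not tested. GJB1, a connexin of liver and myelinating glia, was 107, 407, 388, 113 and 85.4 from ESC to N3. GJB1 was 3.82-fold higher in EB than in ESC and 3.45-fold lower in N2 than in N1, the same steps as CDH17. Its ESC signal lay under the brightest reporter control on that array, 190. The GJB1 log2 ratio of -1.78 in N2 against N1 was -0.96 with a floor of 200. GJC1, a connexin of the embryonic heart, was 614, 288, 744, 288 and 505 from ESC to N3. GJA4, GJA9, GJA10 and GJB5 were under 100 throughout, and GJA3, GJB6, GJC3, GJD2, GJD3 and GJD4 stayed under 200.

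GJC1 alternated between arrays. Its second probe set was 645, 144, 880, 174 and 506 from ESC to N3, and the dimmest was 390, 114, 254, 109 and 80.2. The 2 brighter probe sets were lowest in EB and N2, the arrays with the highest actin 3' to 5' ratios, whereas the dimmest was low there and lowest in N3. A CTNND1 probe set, the dimmest of 3, had the same course (702, 225, 508, 165 and 417 from ESC to N3), against the course of the brightest CTNND1 probe set. Of 62 member probe sets that reached 200, 3 (4.84%) had ESC, N1 and N3 each at least 1.5 times both EB and N2, namely those 2 of GJC1 and 1 of CTNND1, compared with 2.16% of 15810 named probe sets. The part of RNA quality in this pattern was not tested.

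**Figure D4:**
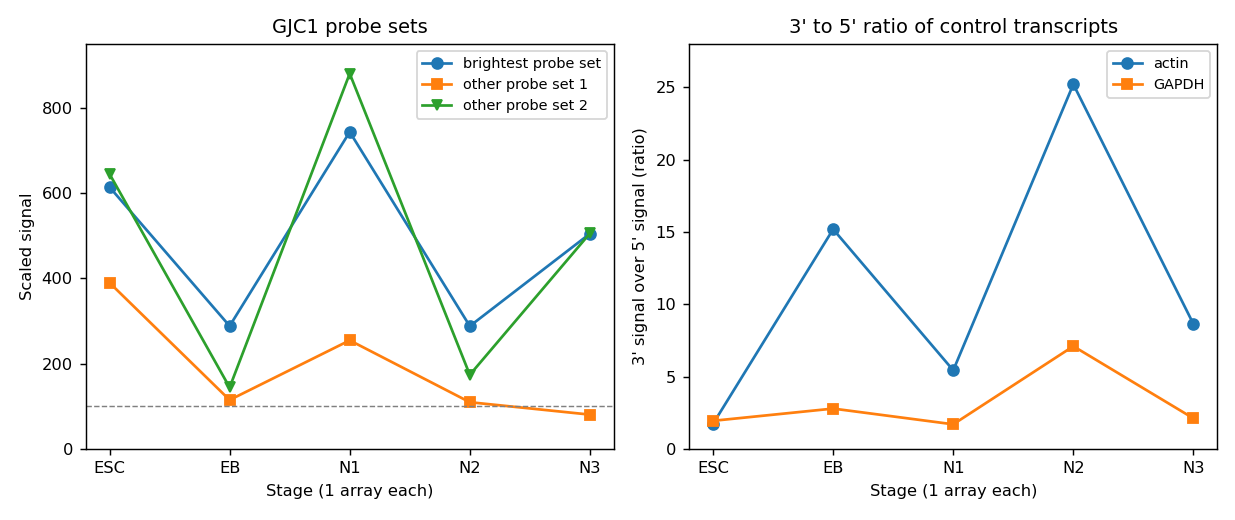
The left panel shows the scaled signal of the 3 GJC1 probe sets by stage (1 array each), with the floor of 100 as a dashed line. The right panel shows the ratio of 3' to 5' signal of the actin and GAPDH controls on the same arrays. The 2 brighter GJC1 probe sets are lowest in EB and N2, where the actin ratio is 15.2 and 25.2.

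Counted by step, more members passed 2-fold in EB against ESC and in N2 against N1 than in the other steps. The same held for all measured genes. This order depended on the scaling. With hybridisation controls, N1 against EB had 14 members higher (26.4%, beside 13.8% of all genes) and 0 lower (beside 0.691%). EB against ESC had 9 higher (18.8%, beside 14.5% of all genes) and 4 lower (8.33%, beside 9.72%) under that scaling. In EB against ESC, 9 of 51 measured members (17.6%) were at least 2-fold higher, where 12.1% of all measured genes were, and 5 (9.8%) were lower, where 11.8% of all genes were. The higher members were CDH3, CDH11, CDH17, CLDN1, CTNND2, GJA5, GJB1, PCDH7 and PCDH18, and the lower ones CDH10, CLDN10, CLDN19, GJC1 and PCDHA5. In N1 against EB, 3 of 47 (6.38%) were higher (CDH18, GJC1 and PCDHB4) and 1 (2.13%) lower (PCDH7), beside 5.15% and 2.2% of all genes. In N2 against N1, 7 of 48 (14.6%) were higher, beside 5.06% of all genes, and 4 (8.33%) lower, beside 6.53%. The 7 were CDH4, CDH13, CTNND2, PCDH8, PCDHA5, PCDHB3 and PCDHB11, and the 4 were CDH17, DSG2, GJB1 and GJC1. In N3 against N2, 2 of 51 (3.92%) were higher (CDH4 and CTNNA2) and 1 (1.96%) lower (DSC2), beside 4.78% and 2.19% of all genes, and the CTNNA2 log2 ratio of 1.03 was 0.98 with quantile normalisation and 0.92 with equal medians.

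Scaling changed the split between higher and lower members. Setting the arrays equal on 27 hybridisation controls moved the median log2 ratio of all genes from -0.04 to -0.57 in N2 against N1 and turned the member counts to 3 higher (5.56%, beside 1.71% of all genes) and 14 lower (25.9%, beside 23.3%). Under it the log2 ratios of PCDHA5, PCDHB3 and CTNND2 in that step were 0.73, 0.69 and 0.71, under 2-fold. In N1 against EB the same scaling moved the median from -0.02 to 0.41 and gave 14 members higher (26.4%, beside 13.8% of all genes) and 0 lower (0.691% of all genes). Scaling to equal medians moved the median from -0.06 to 0.41 in EB against ESC, with 13 members higher (25.5%, beside 23.9% of all genes) and 3 lower (5.88%, beside 5.98%). The GJC1 log2 ratio of -1.09 in EB against ESC was -0.60 with equal medians, -0.98 with hybridisation controls and -0.99 after quantile normalisation.

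Over the whole course, 15 of 56 measured members (26.8%) were at least 2-fold higher in N3 than in ESC and 5 (8.93%) were lower, beside 17.2% and 16.4% of all genes. The 15 were CDH4, CDH11, CDH12, CDH18, CLDN1, CTNNA2, CTNND2, GJA5, PCDH8, PCDH18, PCDHB3, PCDHB4, PCDHB5, PCDHB8 and PCDHB11. The 5 lower members were CLDN3, CLDN10, DSC2, DSG2 and PCDHAC1. The median log2 ratio of members was 0.03 and that of all genes -0.13. Leaving out the ESC array, whose cells grew on feeders and which had the highest reporter controls, N3 against EB had 11 of 52 members higher (13% of all genes were) and 8 lower (11.2% of all genes). Leaving out N2, which had the highest 3' to 5' ratios, N3 against N1 had 11 of 52 higher (8.42% of all genes) and 6 lower (6.67%).

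**Figure D5:**
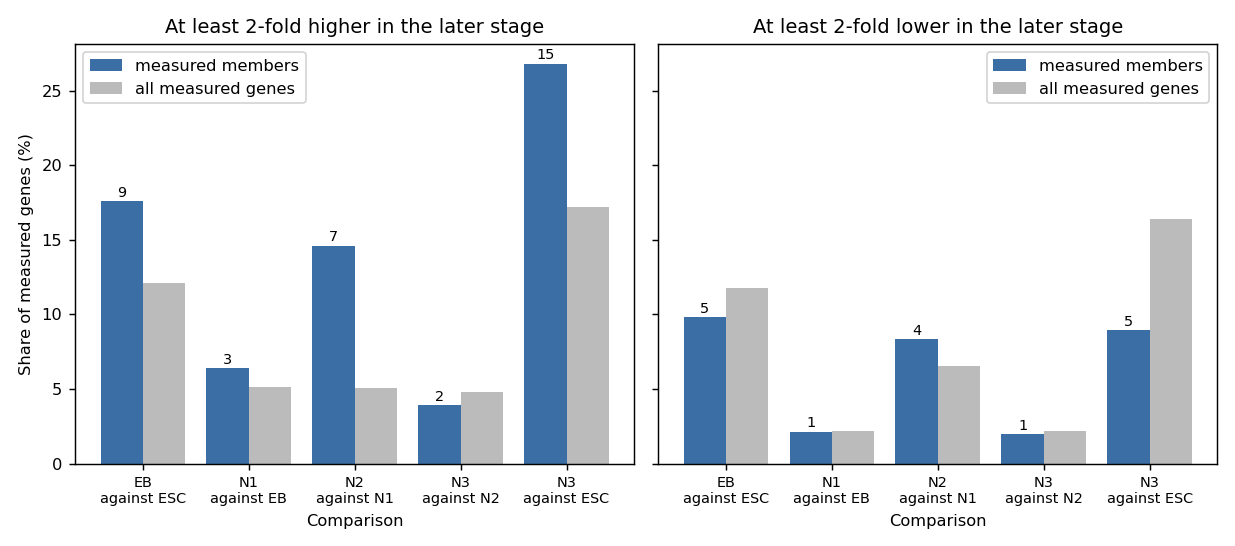
Bars give the share of measured genes at least 2-fold higher (left) or lower (right) in the later stage, for the members and for all measured genes, and the number above a bar is the count of members. In N2 against N1 the bar for higher members stands at 14.6% beside 5.06%, and in N3 against ESC the bar for lower members stands at 8.93% beside 16.4%.

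Disagreement between probe sets of the same gene gives the only technical spread. The SD of log2 ratios between the 2 brightest measured probe sets, divided by the square root of 2, was 0.82 over 4621 genes for the last stage against the first, 0.75 for EB against ESC, and between 0.43 and 0.54 for the other steps. It was 0.95 over the 17 members with 2 such probe sets in N3 against ESC. Of 7 such members past 2-fold there, the second probe set had the same direction for 6 and passed 2-fold for 3.

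Of 4 measured genes known to repress epithelial cadherin, 1 was at least 2-fold higher in N3 than in ESC (ZEB2) and 1 lower (SNAI1). Their median log2 ratio was 0.19. Over all measured genes 17.2% were higher and 16.4% lower in the same comparison. ZEB2 was 320, 1042, 1206, 2102 and 1673 from ESC to N3, and 5.23-fold higher in N3 than in ESC. ZEB1 was 339, 124, 484, 309 and 512 from ESC to N3, lowest in EB. SNAI1 was 226 in ESC and 109 in N3, and TWIST1 1184 and 1019. Of 10 adherens junction partners measured in N3 against ESC, 0 were at least 2-fold higher and 2 lower (NECTIN4 and ACTN4). The 2 of 10 lower is near the 16.4% of all genes. The median log2 ratio of the 10 was -0.36.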

How the data were processed

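Total RNA from 1 sample per stage was labelled with biotin, per the labels, and measured on 5 arrays that carry Affymetrix control probe sets. The authors deposited linear intensities for every probe set. GCOS 1.0 appears in the submitters' processing notes. Neither its algorithm nor its detection calls are stated in the labels or file headers. The deposited trimmed means were 199.1 to 199.3, nearly equal between arrays before any scaling here.

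The intensities were multiplied to give every array a 2% trimmed mean of 500 over 52707 non-control probe sets, set to at least 100 and taken to log2. Gene names came from GEO's platform table, possibly outdated, through the 24969 of 52865 probe sets with 1 symbol. Of the 79 members, 77 matched a RefSeq gene by Entrez identifier, under the same symbol. The 3 probe sets annotated to several members were not used for any gene. The brightest probe set by mean log2 signal stood for a gene. A gene was measured in a comparison if at 100 or more on either array. Calls are ratios of 2 or more. There are no tests, since each stage has 1 array, and array number limits precision. The calculation, tested on simulated data, used Python 3.11.15, pandas 2.3.3, numpy 2.4.6 and scipy 1.17.1.

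Any member reaching 200 could be named. Those with a 2-fold range between stages are given at all 5, as are CDH1, CDH3, CDH4, CDH11, CTNNA1, CTNNA2, CTNND1, CTNND2, DSG2 and DSC2 whatever their values. The members and the lists of partners and markers were chosen with earlier results of these data known. Alternatives were other scalings, floors, probe set choices and a 4-fold threshold. No coordinates or sequences are given.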

Additional observations from a re-analysis of the deposited data

Results flagged for a closer look

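A probe set annotated to 2 beta protocadherins at once stood for no gene in the report and read 116, 139, 153, 180 and 264 from ESC to N3. In N3 it lay above the brightest of 59 reporter controls on that array, 112, whereas in ESC it lay under the brightest, 190. Which of its genes it measured was not established.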

How the results depend on the processing

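No paired analysis was possible because each stage has 1 array, and no array could be left out within a stage. The planned CDH2 results were not run, since CDH2 was not analysed here. Of 159 alternatives for the member counts, the member medians and CDH1, 103 stayed within 1.5 times a count or within the limit set for a median. The cause of the changes below was not tested, except that a lower floor or none admits dimmer values and a 4-fold threshold asks for more.

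Member medians (log2) in EB against ESC were 0.43 with equal medians, 0.20 with a floor of 200, 0.11 with hybridisation controls and 0.22 with quantile normalisation. In N1 against EB they were -0.31 with equal medians, 0.46 with hybridisation controls and -0.092 with quantile normalisation. In N2 against N1 they were -0.33 with hybridisation controls and -0.034 with the median of probe sets. In N3 against N2 they were -0.20 with equal medians, 0.13 with hybridisation controls and 0.067 with the median of probe sets. In N3 against ESC they were 0.17 with equal medians and with a floor of 200, 0.27 with hybridisation controls, 0.13 with quantile normalisation and 0.20 with the median of probe sets.

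Shares of all genes stand beside each count. At 4-fold in EB against ESC, 5 members (9.8%) were higher, beside 3.69%, and 1 (1.96%) lower, beside 2.32%. In N1 against EB, 0 were higher, beside 0.542%, and 0 lower, beside 0.0968%. In N2 against N1, 1 (2.08%) was higher, beside 0.673%, and 1 (2.08%) lower, beside 0.483%. In N3 against N2, 0 were higher, beside 0.346%, and 0 lower, beside 0.212%. In N3 against ESC, 3 (5.36%) were lower, beside 2.81%. With a floor of 50, 12 (18.2%) were lower in EB against ESC, beside 16.3%. In N1 against EB, 8 (13.3%) were higher, beside 7.23%, and 2 (3.33%) lower, beside 2.84%. In N3 against N2, 4 (6.25%) were higher, beside 5.74%, and 4 (6.25%) lower, beside 3.26%. In N3 against ESC, 9 (13.2%) were lower, beside 19.5%. With no floor the counts were the same, except 3 lower (5.88%, beside 3.76%) in N3 against N2. The other shares of all genes with no floor were 18.4%, 8.36%, 3.25%, 6.7% and 21.9% in that order. Those of members were 24%, 16.7%, 4.17%, 7.84% and 16.4%. With a floor of 200, 1 (3.03%) was higher in N1 against EB, beside 3.68%. With hybridisation controls, 14 (26.4%) were higher in N1 against EB, beside 13.8%, and 0 lower, beside 0.691%. In N2 against N1, 3 (5.56%) were higher, beside 1.71%, and 14 (25.9%) lower, beside 23.3%. In N3 against N2, 5 (10.2%) were higher, beside 8.05%. With equal medians, 3 (5.88%) were lower in EB against ESC, beside 5.98%, and 5 (10.6%) in N1 against EB, beside 8.06%. In N3 against N2, 1 (1.96%) was higher, beside 3.61%, and 3 (5.88%) lower, beside 3.02%. With quantile normalisation, 1 (1.96%) was higher in N3 against N2, beside 3.93%, and 2 (3.92%) lower, beside 2.7%. With the median of probe sets, 1 (1.96%) was lower in N3 against ESC, beside 17.2%, and 0 in N3 against N2, beside 1.22%. Comparisons chosen after seeing the data gave 8 lower in N3 against EB (15.4%, beside 11.2%) in place of N3 against ESC. They gave 11 higher in N3 against N1 (21.2%, beside 8.42%) in place of N2 against N1.

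The CDH1 log2 ratio, N3 against ESC, was 0 at the floor of 100, -0.48 with a floor of 50 and -4.54 with none. With a floor of 200, 10 of 52 single ratios past 2-fold went under it. In N1 against EB these were CDH18 (0.84) and PCDHB4 (0.92), and in EB against ESC CLDN19 (-0.27). In N2 against N1 they were CDH4 (0.50), PCDHB3 (0.62) and GJB1 (-0.96). In N3 against ESC they were CDH12 (0.15), PCDHB5 (0.66), PCDHB8 (0.07) and CLDN3 (-0.65). The median of probe sets reversed PCDHA5 (0.23 in EB against ESC and -0.63 in N2 against N1) and PCDH11X (2.50 in EB against ESC and 2.11 in N3 against ESC), and took DSC2, DSG2, CLDN1 and CLDN3 in N3 against ESC under 2-fold (-0.15, -0.88, 0.93 and -0.65). Of 1934 alternatives for single ratios, 1819 kept their side of the threshold (1743 with the same sign and 76, from ratios under 2-fold, with the sign turned), 65 went under it, 46 went past it and 4 reversed.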
